A study of Homo sapiens with 8 samples.

Results

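The genes described here make, keep, read and remove DNA methylation: DNMT3A, DNMT3B, DNMT3L, DNMT1, UHRF1, TET1, TET2, TET3 and ZFP57. Their members are CpGs, chosen by position and not by level: every CpG listed within 2000 bases of a given hg19 start site of these 9 genes, with 2 start sites for DNMT3A, plus the DNMT3A gene body. That rule gave 994 CpGs of 2975221 listed in the whole series, of which 744 were listed in all 8 libraries and 250 were covered by 5 or more reads throughout. The study profiled genomic DNA of HUES64, a human embryonic stem cell line with both DNMT3A and DNMT3B knocked out, by reduced representation bisulfite sequencing (RRBS), which reads the CpG-rich fragments that an enzyme cuts from the genome. All 8 libraries carry the same double knockout (DKO) and differ by passage: 6, 7, 8, 11, 13, 17, 27 and 28, with 1 library each and no library of unedited cells. The labels name no treatment, and they do not say whether the passages are 1 clone or 1 culture, so no p-value measures a spread between replicate cultures. P-values of mean levels measure the scatter of these libraries about a trend with passage. For windows, tiles and CpGs that scatter was moderated over the whole table and not taken below that of read counting. Neither the knockout nor the cell type was checked, since bisulfite levels hold no expression markers.

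DNMT3A and DNMT3B are the catalytic enzymes that place methyl groups on CpGs that carry none, and DNMT3L is a catalytically inactive partner that stimulates them. DNMT1 copies methylation onto the new strand at replication, and UHRF1 recruits it to hemimethylated CpGs. The TET enzymes oxidise methylcytosine, the first step of its removal, and ZFP57 is a zinc finger protein that binds methylated imprinted regions and helps to keep them methylated. CpG-rich promoters of expressed genes are usually unmethylated and the bodies of expressed genes usually methylated.

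The start sites lie in sequence that differs in how many CpGs it holds. RefSeq promoters (GRCh38.p14) were found for 8 of the 9 genes; 9 entries, in 5 of the 10 windows, could be tied to listed hg19 CpGs by the spacing of at least 5 of them. The 4 shown here, each the 250 bases upstream of an annotated start, 5′ to 3′ on the gene's strand with each CG in capitals, are stretches in which nearly every read was unmethylated at all passages. They hold 25, 21, 28 and 34 CpGs, against a median of 11 over 35116 promoters. A match needed at least 5 listed CpGs, so promoters with few CpGs could not be shown, and the excess over that median is not a result. Levels of the matched entries not shown ran from 0 to 3.06%, with 1.4% (16 of 1141 reads) at 1 upstream DNMT3A entry.
DNMT3A internal start, chr2:25252316-25252565, minus strand: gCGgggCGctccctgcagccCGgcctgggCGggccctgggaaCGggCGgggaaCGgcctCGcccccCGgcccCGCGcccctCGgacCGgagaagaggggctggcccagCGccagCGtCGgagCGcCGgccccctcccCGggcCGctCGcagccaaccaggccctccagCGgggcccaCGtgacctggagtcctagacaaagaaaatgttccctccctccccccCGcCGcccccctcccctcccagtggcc
DNMT1, chr19:10194954-10195203, minus strand: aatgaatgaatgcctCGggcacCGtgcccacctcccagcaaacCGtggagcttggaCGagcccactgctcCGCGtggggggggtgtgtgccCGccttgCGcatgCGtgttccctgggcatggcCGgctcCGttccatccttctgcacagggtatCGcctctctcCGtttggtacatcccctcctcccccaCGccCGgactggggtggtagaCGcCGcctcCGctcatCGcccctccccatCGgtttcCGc
UHRF1, chr19:4909251-4909500, plus strand: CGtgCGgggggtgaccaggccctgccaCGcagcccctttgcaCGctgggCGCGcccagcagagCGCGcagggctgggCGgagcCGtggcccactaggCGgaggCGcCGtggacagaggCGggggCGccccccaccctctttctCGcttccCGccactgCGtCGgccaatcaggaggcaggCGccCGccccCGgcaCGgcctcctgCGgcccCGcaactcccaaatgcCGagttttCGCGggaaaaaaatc
TET2, chr4:105146626-105146875, plus strand: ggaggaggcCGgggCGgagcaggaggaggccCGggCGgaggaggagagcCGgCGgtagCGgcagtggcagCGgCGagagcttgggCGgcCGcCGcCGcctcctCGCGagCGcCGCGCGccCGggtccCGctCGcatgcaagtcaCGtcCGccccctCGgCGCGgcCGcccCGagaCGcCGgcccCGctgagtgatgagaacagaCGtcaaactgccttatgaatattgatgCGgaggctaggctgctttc
Over the CpGs of these stretches listed in all 8 libraries, DNMT3A had 3 methylated reads of 398 at 8 CpGs, all at 1 CpG. DNMT1 had 0 of 941 reads at 9 CpGs, which allows a level of up to 0.319%. UHRF1 had 0 of 644 reads at 4 CpGs (up to 0.466%) and TET2 had 0 of 653 at 11 CpGs (up to 0.459%). These limits, and the 95% Wilson intervals below, cover counting error only, since reads are not independent molecules. The UHRF1 and DNMT3A starts lie 3 and 0 bases from those of the rule, the DNMT1 start lies 126 bases downstream of it, and the TET2 start lies 1001 bases downstream.

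The libraries held 19898423 to 44599588 CpG reads and a median of 6 to 13 reads per listed CpG, with passage 6 the deepest. Across the 886094 autosomal CpGs with 5 reads or more throughout, the early libraries (passages 6 to 8) averaged 44.4% ± 0.261 (SD, n = 3) and the late ones (27 and 28) 35.7%. This general fall moves with passage together with the falls described below. Only the gene body was set against it, and its part in the others was not tested. A window, tile or CpG was called changed when a logistic trend with passage, its dispersion shared across the whole table by limma, gave a Benjamini-Hochberg adjusted p under 0.05 over that table and the fit moved by 10 percentage points or more from passage 6 to 28. Of all windows of 4000 bases that could be tested, 30.9% fell and 0.129% rose. Of the 10 windows around the start sites, 6 could be tested and 2 fell, DNMT3L and TET3 (33.3%), a share near that background. None rose; of the 6, 2 had an unadjusted p under 0.05, the 2 that fell. Limma on logit levels, where 23.2% of all windows fell, called no rise and no fall among the 6 (adjusted p = 0.161 for DNMT3L and 0.258 for TET3). The other windows could not be tested, because DNMT3B and TET1 had too few methylated reads, and ZFP57 and the internal DNMT3A window had under 3 CpGs that reached 5 reads throughout.

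**Figure D1:**
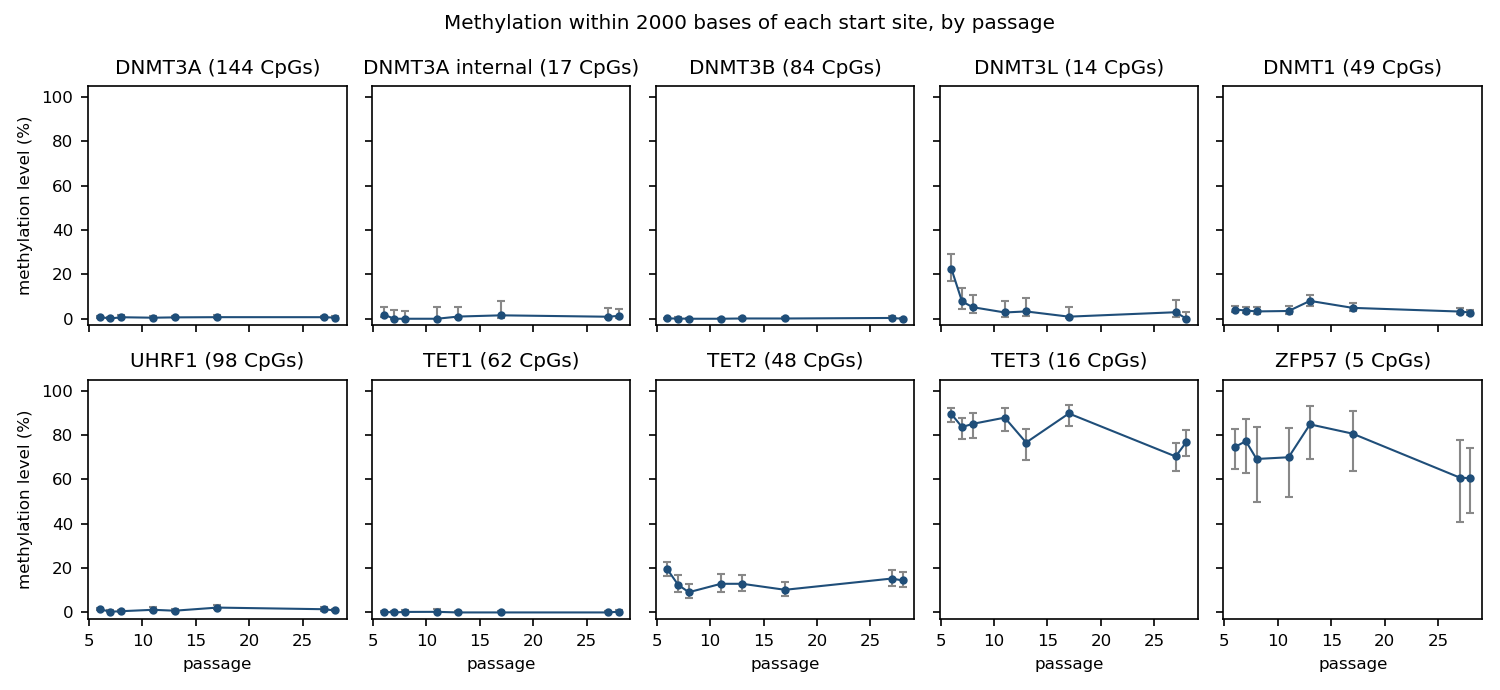
Methylation level (percent of reads methylated, vertical axis) against passage (horizontal axis) in the 10 windows, over CpGs read at all 8 passages; bars are 95% Wilson intervals of the reads. DNMT3A (both starts), DNMT3B, UHRF1 and TET1 stay at or below 2.18%, TET3 and ZFP57 start at 89.5 and 74.7%, and DNMT3L starts at 22.7% and ends at 0.

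Among the enzymes that place methylation, the windows of both knocked-out genes had low pooled levels at every passage. At the upstream DNMT3A start (chr2:25563459-25567459, minus strand), 144 CpGs were listed in all libraries. Their level was 0.744, 0.113, 0.679, 0.472, 0.618, 0.712, 0.702 and 0.498% at passages 6, 7, 8, 11, 13, 17, 27 and 28, from 843 to 1881 reads. The early and late values overlapped, and 129 of the 144 CpGs had no methylated read in any library. The 35 CpGs with 5 reads gave a fitted change of 0.931 points (adjusted p = 0.156 by the limma-moderated trend over all windows).

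The low pooled level of the upstream DNMT3A window held a small methylated part upstream of the start. In the tile chr2:25566001-25567000, 3 CpGs at -817, -840 and -1026 bases read 40.9, 14.3, 30, 0, 29.4, 28.6, 5.56 and 0% at the 8 passages, on only 3 to 22 reads. With 1 read as the minimum this tile fell by 32.1 points in the fit (adjusted p = 0.0488, limma-moderated trend over all tiles), just past the threshold. None of the 3 CpGs had 5 reads in each library, so the main analysis did not test them.

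The internal DNMT3A start (chr2:25473184-25477184), from which the shorter form of the enzyme is transcribed, was covered thinly: 17 CpGs with 65 to 159 reads per library. It stood at 1.89, 0, 0, 0, 0.99, 1.54, 0.909 and 1.3% in the same order, and 14 of the 17 CpGs were at 0 in every library. At DNMT3B (chr20:31348191-31352191, plus strand) the 84 CpGs gave 0.125, 0.108, 0, 0, 0.123, 0.112, 0.352 and 0%, from 684 to 1595 reads. Of these, 76 were at 0 in every library. Thus no library had a pooled level above 1.89% in any of these 3 windows, whatever the passage.

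DNMT3L (chr21:45680099-45684099, minus strand) differed from its partners. Its 14 CpGs stood at 22.7% at passage 6, 7.81% at 7, 5.22% at 8, 2.83% at 11, 3.3% at 13, 0.943% at 17, 2.94% at 27 and 0 at 28, from 91 to 181 reads. Passage 6 was far above the rest: its interval, 17.2 to 29.3%, lies above that of passage 7, 4.3 to 13.8%. The 0 of passage 28 rests on 124 reads. With each CpG given the same weight the levels were 17.8, 7.86, 11.6, 1.43, 1.88, 0.476, 2.38 and 0%. By either weighting of these 14 CpGs every library from passage 11 on was below all 3 early ones; over the 5 CpGs with 5 reads, passage 8 was already at 1.3%.

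The fitted change of DNMT3L was -13.8 points (adjusted p = 0.04, limma-moderated trend, 5 CpGs with 5 reads). Over the 14 CpGs with 1 read it was -14.4 points (adjusted p = 0.00616, same trend), and leaving out libraries was not run at that minimum. The call over the 5 CpGs rests on single libraries. Without passage 6 the fitted change was -4.07 points (adjusted p = 0.409), and the call was also lost without passage 7 (adjusted p = 0.0597), 17 (0.0502) or 28 (0.136). Over its alternatives the adjusted p ran from 0.00278 to 0.409, and the exact permutation test of a straight line, adjusted over all windows, gave 0.318.

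Within the DNMT3L window, methylation lay on the transcribed side of the start. The CpGs of the tile chr21:45684001-45685000 lie beyond the upstream edge of the window. They were methylated, with a mean of 80.1% early and 64.7% late with 1 read as the minimum. The fitted change of that tile was -15.6 points (adjusted p = 0.00979, limma-moderated trend over all tiles), a called fall. Of all tiles tested at that minimum, 22.3% fell. The CpG 457 bases downstream (chr21:45681642) read 66.7, 50 and 100% at passages 6 to 8, 20% at passage 13 and 0 in the other 4 libraries. The CpG 394 bases downstream read 81.8, 20 and 42.9% and then 0 in all 5 later libraries. At 1050 bases downstream (chr21:45681049), the 1 CpG of the window that could be tested alone, the level was 57.1, 30, 5, 20, 6.25, 6.67, 13.3 and 0%. Its fitted change was -36 points (adjusted p = 0.0266, limma-moderated trend over all CpGs), but -13.8 points without passage 6 (adjusted p = 0.3), and it was not called without passage 7 (0.0543) or 28 (0.124). The 6 CpGs upstream, at -1011 to -1414 bases from the start, had no methylated read apart from 1 CpG at 20% at passage 27. In all, 6 CpGs were lower late than early, 1 was higher and 7 were at 0 in every library. The share of all autosomal CpGs lower late is not given here.

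**Figure D2:**
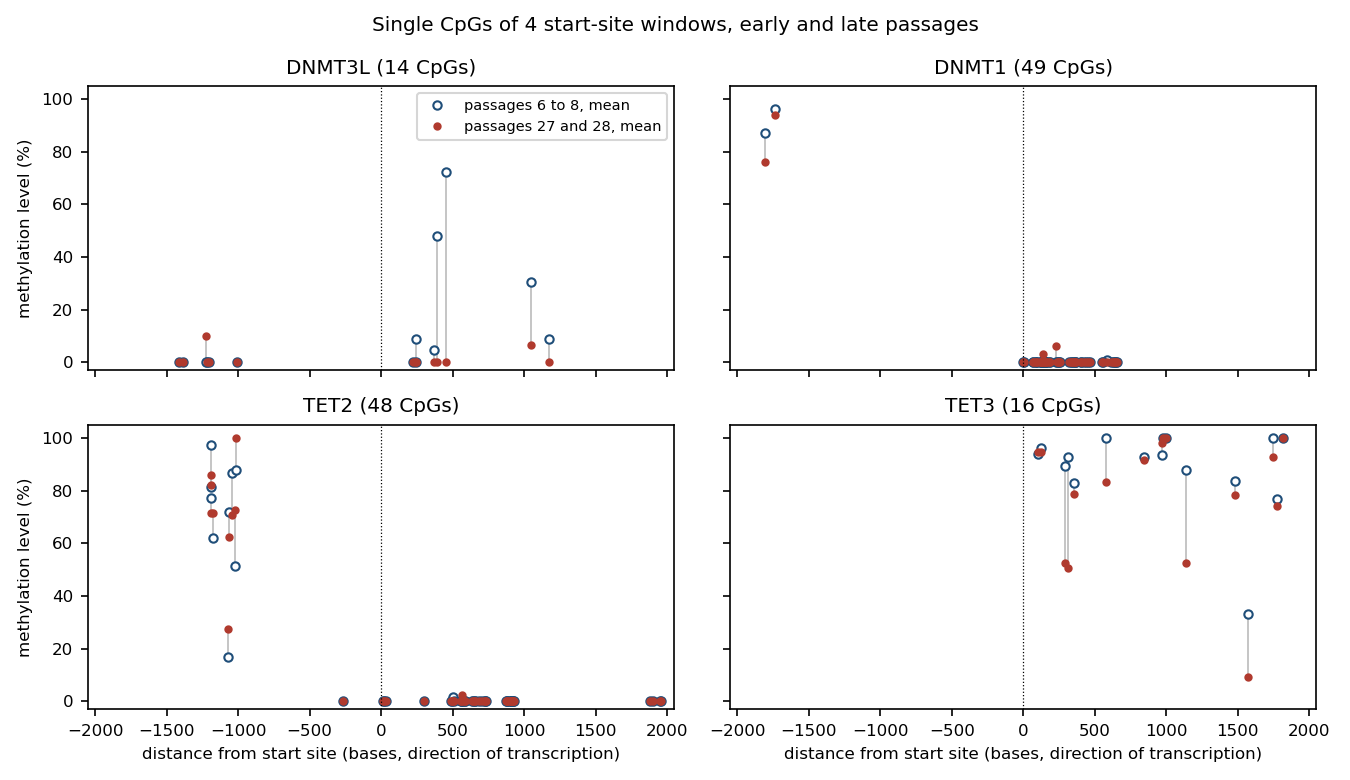
Methylation level (percent, vertical axis) of single CpGs against distance from the start site (bases, direction of transcription, horizontal axis) for DNMT3L, DNMT1, TET2 and TET3; open points are means of passages 6 to 8, filled points means of passages 27 and 28, and a line joins the 2 means of a CpG. In DNMT3L the methylated CpGs lie downstream and fall, in DNMT1 and TET2 they lie over 1000 bases upstream, and in TET3 all 16 CpGs lie downstream.

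The maintenance genes kept unmethylated starts. At DNMT1 (chr19:10303755-10307755, minus strand), 44 of 49 CpGs were at 0 in every library. The window stood at 4.16, 3.71, 3.31, 3.5, 8.06, 4.91, 3.25 and 2.8% from 484 to 1010 reads, and its trend was -1.56 points (adjusted p = 0.419, limma-moderated trend). Nearly all of that level came from 2 CpGs far upstream. At -1738 bases from the start (chr19:10307493) the level was 96.2% ± 3.6 (SD, n = 3) early and 93.9% late. At -1806 bases (chr19:10307561) it was 87% ± 1.68 (SD, n = 3) early and 76.3% late. Passage 13 stood above the other libraries in these summed reads. With each CpG given the same weight the 8 libraries ran from 3.45 to 4.02%.

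At UHRF1 (chr19:4907510-4911510, plus strand), 86 of 98 CpGs were at 0 in every library. The levels were 1.41, 0.331, 0.555, 1.19, 0.78, 2.18, 1.45 and 0.876% from 757 to 1631 reads, with early and late values overlapping. The trend over its 44 CpGs with 5 reads was 0.261 points (adjusted p = 0.38, limma-moderated trend). The methylated reads came mostly from the edge of the window: 3 neighbouring CpGs at -1951, -1937 and -1933 bases from the start read between 0 and 100% on 2 to 10 reads each. Within 500 bases of the start no library exceeded 0.148%.

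The windows of the 3 TET genes had different starting states. TET1 (chr10:70318117-70322117, plus strand) was unmethylated: 58 of its 62 CpGs were at 0 in every library. Its level was 0.293, 0, 0.231, 0.263, 0, 0, 0 and 0.329% from 380 to 1025 reads. Over the 5 windows of lowest level together (both DNMT3A starts, DNMT3B, UHRF1 and TET1), 363 of 405 CpGs had no methylated read in any library. Early means were under 20% at 400 of the 405. Late means were 20% or more at 6, namely the 3 edge CpGs of UHRF1, 2 at the internal DNMT3A start and 1 at TET1, on 2 to 16 reads per library.

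TET2 (chr4:106065032-106069032, plus strand) held both states at once. The 7 CpGs within 500 bases of the given start were at 0 in every library, and 37 of all 48 were. A run of 9 CpGs from -1193 to -1014 bases (upstream, chr4:106065839-106066018) carried nearly all of the methylated reads; 8 of them had an early mean of 20% or more and all 9 a late one. The exception, at -1070 bases, read between 0 and 66.7%, with 0 at passages 7, 8 and 17. The CpG at its upstream end read 97.1% ± 5.02 (SD, n = 3) early and 82.1% late, and the CpG at its downstream end 88% ± 12.5 early and 100% late. The window as a whole stood at 19.4, 12.5, 9.12, 12.9, 12.9, 10.2, 15.3 and 14.4% from 265 to 635 reads. Late values lay among the early ones, and the trend was -2.84 points over the 8 CpGs with 5 reads (adjusted p = 0.514, limma-moderated trend). Over its 48 CpGs with 1 read it was -0.813 points (adjusted p = 0.868). Neighbouring CpGs of this run share reads and are not separate measurements.

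The TET3 window (chr2:74271405-74275405, plus strand) was methylated where it was read. No RefSeq promoter of TET3 was tied to listed CpGs, so whether a TET3 promoter was methylated was not tested. All 16 CpGs of the window lie downstream of the given start, 103 to 1814 bases away, and no upstream CpG was listed. Their level was 89.5, 83.6, 85.1, 87.9, 76.6, 89.8, 70.4 and 76.9% at the 8 passages, from 137 to 325 reads. The 2 late libraries stood below the 3 early ones, which averaged 86.1% ± 3.08 (SD, n = 3), but passage 13 lay as low as passage 28. In all, 11 of the 16 CpGs were lower late and 2 higher, and of 14 with an early mean of 80% or more, 9 had a late mean that high. Autosomal CpGs starting at 80% or more also fell, from 92.4 to 80.5%, and the share of them lower late is not given here.

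The fitted change of TET3 was -12.5 points over its 10 CpGs with 5 reads (adjusted p = 0.0462, limma-moderated trend), just past the threshold. Over passages 6 to 17 alone it was 0.456 points (adjusted p = 0.979), so the fall rests on the late libraries. The call was lost without passage 6 (adjusted p = 0.17), 8 (0.0566), 11 (0.0629), 27 (0.273) or 28 (0.114). Over all its alternatives the adjusted p ran from 0.0128 to 0.979. A single CpG, 294 bases downstream (chr2:74273699), was called: it read 92.3, 92.9, 83.3, 94.7, 60, 100, 42.1 and 63.2%, or -38.5 points in the fit (adjusted p = 0.0207, limma-moderated trend). That call was lost without passage 6 (0.0616) and without passage 27, where the fitted change was -24.6 points (0.208). Nearby CpGs differed, with no test of that difference: the one 315 bases downstream had a mean of 92.9% early and 50.5% late, and the one 103 bases downstream 93.9% early and 94.4% late.

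ZFP57 (chr6:29642931-29646931, minus strand) had 5 listed CpGs, 694 to 895 bases downstream of its start, and all were methylated. They stood at 74.7, 77.3, 69.2, 70, 84.8, 80.6, 60.9 and 60.5% from 23 to 87 reads. The late libraries were the lowest, and all 5 CpGs were lower late than early. CpGs this close can share reads and are not separate measurements. Autosomal CpGs starting at 80% or more also fell, from 92.4 to 80.5%, and the share of them lower late is not given here. With so few reads the intervals overlapped, 40.8 to 77.8% at passage 27 against 50 to 83.5% at passage 8. The trend over CpGs with 1 read was -12.6 points (adjusted p = 0.306, limma-moderated trend), so a change was not detectable at this depth.

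The DNMT3A gene body (chr2:25455830-25565459) had a lower mean level at late than at early passages. It includes the transcribed side of the upstream window and all of the internal window. Over its 91 CpGs that had 5 reads or more throughout, each with the same weight, the mean level was 33.5, 32.9, 31.7, 30.5, 28.1, 27.4, 26.4 and 25.5% at the 8 passages. By this weighting every library was lower than the one before it in passage, which also held for the mean of all autosomal CpGs. With reads pooled over the 91 gene body CpGs the order was not strict: 31.9, 29.4, 26.7, 28.5, 23.9, 25.4, 22.7 and 23.7%. The early mean was 32.7% ± 0.893 (SD, n = 3) and the late mean 25.9%, a change of -6.76 points. The fall per passage was a slope of -0.327 ± 0.0531 points (SE, n = 8), with Pearson's r = -0.929 (exact permutation p = 0.000298, two-sided) and Spearman's rho = -1 (exact permutation p = 4.96e-05, the smallest that could be reached for rho). Leaving out both late libraries, which lie farthest out in passage, gave r = -0.973 (exact permutation p = 0.00139) and a slope of -0.587. The slope was also steeper without the 2 start-site windows, -0.55 points per passage over 56 CpGs, and over the 11 CpGs with 10 reads, -0.617. All CpGs so dropped were of the upstream window, since the internal one had none with 5 reads throughout. The slope also moved the other way. It was shallower with reads pooled, -0.301 (exact permutation p = 0.0128), over the 365 CpGs with 1 read, -0.233 (0.000198), and without the CpG of largest called fall, -0.286 (0.00248). Across the 886094 autosomal CpGs the mean also fell at each step, from 44.5% at passage 6 to 35.3% at passage 28. Spearman's rho was again -1 (exact permutation p = 4.96e-05), and Pearson's r was -0.997 (exact permutation p = 2.48e-05). The autosomal trend of -0.417 ± 0.0134 (SE) was steeper than the -0.327 of the 91 CpGs. The strict order and the rho thus do not set this gene body apart. Over all starting levels the 2 trends were not compared by a test.

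**Figure D3:**
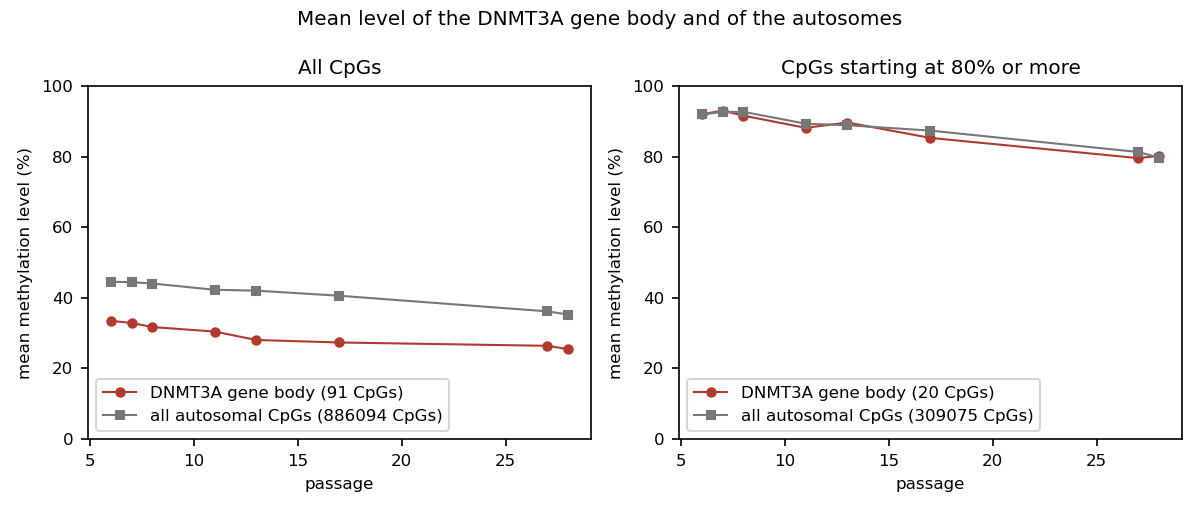
Mean methylation level (percent, vertical axis) against passage (horizontal axis), 1 point per library, for the DNMT3A gene body (circles) and all autosomal CpGs (squares); left, CpGs with 5 reads or more throughout, right, those starting at 80% or more. The gene body falls from 33.5 to 25.5% on the left, below the autosomes throughout, and on the right, with 20 gene body CpGs, the lines end at 80.2 and 79.7%.

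The gene body was set against autosomal CpGs of like starting level. Of its 91 CpGs, 53 started under 20%, 18 between 20 and 80% and 20 at 80% or more. These classes, and the autosomal set, were chosen by the early mean that also begins each change below. Part of a change can come from that choice, and how much was not tested. Among the 20, of which 13 were lower late, the mean went from 92.2% ± 0.741 (SD, n = 3) to 79.9%, at -0.594 ± 0.0453 points per passage (SE, n = 8). The 309075 autosomal CpGs that started at 80% or more went from 92.4% ± 0.407 to 80.5%, at -0.569 ± 0.033. The gene body slope minus the autosomal one came to -0.0243 ± 0.0505 points (SE over 8 libraries; exact permutation p = 0.616, two-sided), which is smaller than its error. It was 0.0108 without passage 27 and -0.0881 without passage 28. One CpG, chr2:25462009, weighed heavily: without it the other 19 went from 92.3% ± 0.925 (SD, n = 3) to 83.8%, at -0.411 ± 0.0729 points per passage, and the difference became 0.158 ± 0.0771 (exact permutation p = 0.0899). Neither form of the comparison passed the threshold, and the 2 differ in sign. That CpG was dropped because its fall was the largest, while the autosomal set lost no other CpG. Dropping it raises the difference by construction, so the second form is not an even comparison. The 53 low CpGs went from 1.28 to 0.777%, and all ended under 20%. The 18 intermediate ones went from 59.1 to 40.1%, 15 of them lower late.

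Single CpGs of the gene body did not move alike. Of 29 that could be tested, 9 fell (31%), against 29.5% of all CpGs tested, and none rose, against 0.298% (29.8% changed either way). Over all 37 testable CpGs of the 9 genes 11 fell, none rose, and 12 had an unadjusted p under 0.05; limma on logit levels gave 6 falls (16.2%, against 23.8% of all CpGs) and no rise. Leaving out passage 6 left 4 falls (12.5%, against 25.7%), leaving out 7 left 6 (16.7%, against 26.9%), 27 left 7 (21.2%, against 22.6%) and 28 left 6 (18.8%, against 18.3%). By position, 8 of the 9 called CpGs of the body lay 90 to 110 kb from the upstream start, near the 3′ end, where 17 were tested. Elsewhere 1 of 12 was called. Where testable CpGs lie depends on coverage and on level, and the difference between the 2 shares was not tested.

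Among CpGs with 5 reads throughout, the largest called fall was at chr2:25462009, 103450 bases from the upstream start. It read 98.1, 86.4, 85.2, 92.9, 74.1 and 90% at passages 6 to 17 and then 3.03 and 9.09% at passages 27 and 28, on 14 to 52 reads. The fitted change was -86.9 points (adjusted p = 4.28e-05, limma-moderated trend), and -12.4 points over passages 6 to 17 alone (adjusted p = 0.541). A bisulfite read counts a C-to-T base change at a CpG like an unmethylated cytosine, and these 2 were not told apart here, so the level means only the share of reads with an unconverted cytosine. None of 4 neighbours showed that step between passages 17 and 27. At chr2:25462032 the level was 95.8% ± 7.22 (SD, n = 3) early and 96.2% late, with 60 and 75% at passages 13 and 17. At chr2:25462136 it was 94.1% ± 10.2 early and 100% late, with 63.6% at passage 17. At chr2:25462139 it was 98% ± 3.4 early and 97.6% late. At chr2:25461917 it was 91.3, 100, 100, 100, 75, 71.4, 63.6 and 58.3% at the 8 passages. The means of that CpG were 97.1% ± 5.02 early and 61% late, and its fit gave -35 points (adjusted p = 0.0356, limma-moderated trend).

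A nearby pair of CpGs fell in level earlier, and for both a base change was likewise not told apart from an unmethylated cytosine. At chr2:25471212 the level was 63.6, 58.3, 85.7, 28.6, 33.3, 0, 0 and 0% (fitted change -76.5 points, adjusted p = 0.000817 by the limma-moderated trend). At chr2:25471061 it was 66.7, 66.7, 60, 44.4, 0, 0, 0 and 5% (-65.5 points, adjusted p = 0.00216, limma-moderated trend). Both were near 0 by passage 17, on 5 to 21 reads per library. The step at chr2:25462009 came only after that passage. With fewer reads, chr2:25510390 read 78.6, 85.7 and 93.3% at passages 6 to 8 and 0 in the 5 later libraries, on 3 to 15 reads, and was not tested alone.

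**Figure D4:**
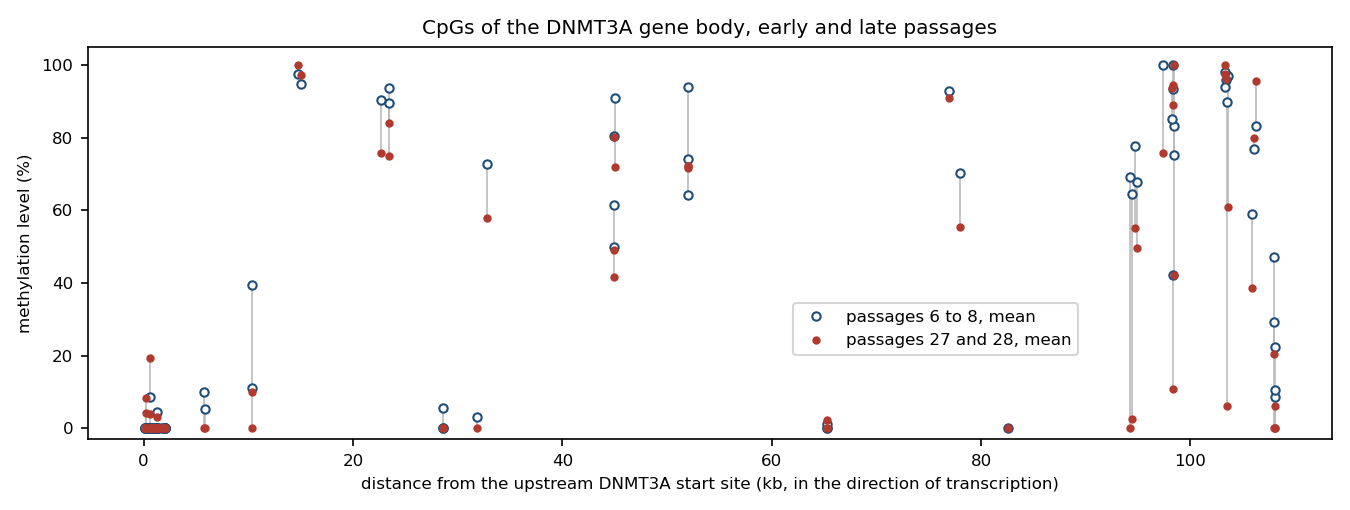
Methylation level (percent, vertical axis) of the 91 CpGs of the DNMT3A gene body against distance from the upstream start site (kb, direction of transcription, horizontal axis); open points are means of passages 6 to 8, filled points means of passages 27 and 28, joined by a line. CpGs near the upstream start are low at both times, and the longest lines lie between 90 and 110 kb.

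In tiles of 1000 bases the gene body had 11 with at least 3 CpGs; 7 could be tested, 2 fell (28.6%, against 33.9% of all tiles tested) and none rose (against 0.166%). The tile chr2:25462001-25463000, with 4 CpGs that include the one with the late step, stood at 95.7, 90, 91.5, 93.5, 84.1, 83.3, 62.5 and 48.3%, or -39.3 points in the fit (adjusted p = 2.3e-05, limma-moderated trend). That fall rests on the 1 CpG: without chr2:25462009 the other 3 stood at 96.1% ± 3.39 (SD, n = 3) early and 97.2% late, a fit of 2.26 points (adjusted p = 0.802), and 1 body tile fell in place of 2. The tile chr2:25457001-25458000, with 5 CpGs, stood at 23.4, 20, 27.1, 22.7, 8.33, 6.1, 5.45 and 5.26%. It fell between passages 11 and 13 and by -19.6 points in the fit (adjusted p = 0.00103, limma-moderated trend). Both stayed called when any 1 library was left out.

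The 3 tiles with the highest late level were not called. The tile at chr2:25459001-25460000 stood at 72.9% ± 6.64 (SD, n = 3) early and 73.3% late, though it dipped to 42.9% at passage 17. The tile at chr2:25513001-25514000 stood at 78.7% ± 7.35 early and 71.9% late (adjusted p = 0.569, limma-moderated trend), and the one at chr2:25467001-25468000 at 79.6% ± 8.16 and 66.3% (-14.7 points in the fit, adjusted p = 0.106). The last holds a called CpG, chr2:25467064, at -48.9 points (adjusted p = 0.0373, limma-moderated trend). With 1 read as the minimum there were 34 tiles, of which 24 could be tested and 4 fell (16.7%, against 22.3% of all tiles at that minimum). The 2 further tiles were chr2:25465001-25466000 at -27.4 points (adjusted p = 0.0106) and chr2:25470001-25471000 at -22.8 points (adjusted p = 0.00818, limma-moderated trend). At that minimum the highest late level was in chr2:25550001-25551000, with 94.8% ± 2.07 (SD, n = 3) early and 98.8% late, and this tile was not called.

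Unmethylated stretches inside the body stayed so. In all, 11 of the 34 tiles were under 10% early, and the highest of these stood at 3.39% late. They include tiles of the first 10 kb, where 150 CpGs had a mean of 1.24% ± 0.225 (SD, n = 3) early and 1.43% late, and the internal start. Another such stretch lies midway, at chr2:25499001-25501000: its 12 CpGs in the first tile stood at 0.575% early and 0.714% late, and its 21 in the second at 0.333% and 0.323%. By 10 kb segments the largest early-to-late differences were -20.3 points at 90 to 100 kb, -16.2 points at 50 to 60 kb and -15.6 points at 100 to 110 kb. At 70 to 80 kb the mean was 66.8% ± 7.01 early and 67.6% late.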

How the data were processed

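Each of the 8 deposited files lists, for each CpG of 1 library, methylated and total reads and a methylation score that the authors deposited beside these counts. The score equals the methylated share of the reads as tested on every line. Positions are hg19, per the submitters' processing notes, and the sources used here name no aligner, caller or filter. CpGs were merged across libraries by position, ignoring strand. The main analysis kept CpGs that had 5 reads or more throughout, because 10 left 56 of the members' CpGs; levels printed for every library use CpGs with at least 1. Reads were summed per window, 1000-base tile (both with at least 3 CpGs) or CpG, and fitted by quasi-binomial logistic regression on passage. A unit was tested with at least 10 methylated and 10 unmethylated reads in all. Dispersions were moderated with limma 3.58.1 (R 4.3.3) and kept at 1 or more, and two-sided F tests were adjusted by the Benjamini-Hochberg method over all autosomal units. Fitted changes span passages 6 to 28. Trends of mean levels used exact permutation over all 40320 orders of the libraries (Python 3.11.15, NumPy 2.4.6, SciPy 1.17.1), where r can reach p = 2.48e-05 at the least. Both mean-level trends of the gene body, and that of all autosomal CpGs, were tested this way, with unadjusted p-values. The fit was tested on simulated data.

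The members, lists and tests were chosen with earlier results of these data known. All windows and the gene body were named with their levels in every library, with the called CpG of largest fall in each window and in the gene body, and the called tiles and 3 highest late tiles of the gene body. The alternative without the CpG of largest called fall, and other single CpGs and stretches named, were chosen after their values were seen. Other genes of the pathway, and exons and introns, were not analysed here, since no hg19 annotation was used.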

Additional observations from a re-analysis of the deposited data

How the results depend on the processing

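The DNMT3A gene body slope and its difference from the autosomes kept their direction or their side of the threshold in all alternatives run; the difference also took both signs (0.0228 for CpGs starting at 60% or more, 0.0607 at 90% or more, 0.158 without the CpG of largest called fall) without passing the threshold. Neither was run at 20 reads in every library, nor the difference at 10, for want of CpGs. Percentages in brackets below are the shares of all windows, tiles or CpGs that fell under the same setting. The count of start-site windows that fell was 2 of 6 tested (30.9%). It became 0 at 10 reads (46.1%), where 1 was tested, neither DNMT3L nor TET3, and 0 at 20 reads (28.9%), where none was tested. It also became 0 with limma on logit levels (23.2%), with at least 20 points (22.4%) and with no minimum of reads of each state (24.4%, 8 tested). The exact permutation test (16%) gave 0, as did windows within 1000 bases (30.9%, 2 tested). The count was 1 for passages 6 to 17 (9.16%, 5 tested), 1 on a log2 passage scale (28.7%) and 1 within 500 bases (30.9%, 1 tested). It ranged from 0 to 2 when 1 library was left out (22.8 to 31.7%). At an unadjusted p under 0.05 limma on logit levels had 0 of 6. The count of gene body tiles that fell was 2 of 7 tested (33.9%). It became 4 of 24 at 1 read (22.3%), 1 of 7 without the CpG of largest called fall (33.9%), 1 of 1 at 10 reads (47.6%) and 0 at 20 reads (23%, none tested). It was 1 of 7 for passages 6 to 17 (10.5%), 1 of 7 with at least 20 points (26.8%) and 1 of 3 with at least 5 CpGs per tile (39.9%). It stayed at 2 of 7 when any 1 library was left out (25.4 to 34.9%). The count of single CpGs that fell was 11 of 37 tested (29.5%). It became 4 of 9 at 10 reads (37.4%), 0 at 20 reads (27.9%, none tested) and 5 of 25 for passages 6 to 17 (7.53%). It was 6 of 37 with limma on logit levels (23.8%) and 3 of 82 with no minimum of reads of each state (9.23%). It ranged from 4 to 12 when 1 library was left out (18.3 to 31.5%). Member shares were not compared with these background shares by a test. At 20 reads no window, tile or CpG could be tested. The TET3 window reversed over passages 6 to 17, at 0.456 points; the cause was not tested. The tile chr2:25462001-25463000 reversed without the CpG of largest called fall, which it holds, at 2.26 points. No window, body tile or CpG rose in any alternative. No paired analysis was possible because there is a single library at every passage. Depth limits ZFP57 and the internal DNMT3A window most: neither had 3 CpGs with 5 reads in every library.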
